A study of Homo sapiens with 2 samples.

Results

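The sites described here were RBMS3 crosslinking sites near the ends of messenger RNAs that carried the variant poly(A) signal ATTAAA and not the canonical signal AATAAA. They were selected on position, sequence and the deletion percentage. A member lay in an annotated 3′UTR on the same strand, had its deletion in under 30% of the tags that covered it, was at most 100 nt upstream of an annotated transcript end, and had ATTAAA, but not AATAAA, within 25 nt on either side of the deleted base. Of the 27706 sites in the list, 1727 met this rule. They lay in 831 genes and at 900 transcript ends. They were 12.9% (95% Wilson interval 12.3 to 13.4) of the 13428 end-proximal 3′UTR sites under the percentage limit, of which 8417 had the canonical signal in the window and 3284 had neither signal.

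The study mapped RBMS3 by crosslinking and immunoprecipitation sequencing (CLIP-seq) in MDA-MB-231, an established human breast cancer cell line, to learn which transcripts and which sequences the protein binds. Both biological replicates expressed FLAG-tagged RBMS3, because antibodies fit to recover the endogenous protein were lacking, and they formed 1 group with no untreated or control library analysed here. The title of replicate 2 gives MDA-MB-231, but the labels for its source and cell line read MDA-MB-232, and it was treated by its title. Only 1 value per site was deposited, from the joined tags of both replicates, so replicate error could not be given for any value, no difference between conditions could be tested, and every interval covers counting error only.

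The poly(A) signal is the hexamer that the cleavage and polyadenylation machinery reads shortly upstream of the place where a messenger RNA is cut and given its tail. In RNA letters the canonical form is AAUAAA and the most common variant is AUUAAA, and both are bound by the CPSF complex through its subunits CPSF4 and WDR33. UGUA elements upstream, bound by the CFIm complex, and a stretch rich in G and U downstream, bound by CstF, help to fix the site of cleavage. RBMS3 is a protein with RNA recognition motifs that binds RNA rich in A and U. CLIP-seq reads a deletion in the sequenced copy as a base the reverse transcriptase skipped at a crosslinked protein, although deletions can have other origins.

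The 10 sites with the most deletions, 1 per gene, show a form that many members took, which is a short run of T beside the signal. All of them are in 3′UTRs. The sequences are 5′ to 3′ on the transcript strand, as DNA letters of hg38, with the variant signal in capitals, and the deleted base is counted from 1 at the 5′ end of each line.
MYL12A (chr18:3256205-3256234, plus strand, deleted base 19): tctgaatcataATTAAActttatgataaaa
VMA21 (chrX:151409332-151409361, plus strand, deleted base 22): ctgatgtcATTAAAaaaagtgtttgtagtg
CDCA4 (chr14:105009944-105009973, minus strand, deleted base 12): aaacctcactttATTAAAaaattatccagc
BMP4 (chr14:53949766-53949795, minus strand, deleted base 7): tatatttataactacgtATTAAAagaaaaa
CDK1 (chr10:60794817-60794846, plus strand, deleted base 9): ttactagctttgggaATTAAActgtttaac
SPRY2 (chr13:80335966-80335995, minus strand, deleted base 11): tattaacgtttgaaATTAAActgagctgtt
PAICS (chr4:56461321-56461350, plus strand, deleted base 7): tgctagtttataagaacaATTAAAaggact
NDUFB3 (chr2:201085712-201085741, plus strand, deleted base 9): tagtaagatttaatcaATTAAAatatatat
IFT25 (chr1:53921563-53921592, minus strand, deleted base 12): ctgatatactttATTAAAaggatttttatc
TES (chr7:116258720-116258749, plus strand, deleted base 22): ctatgaaaATTAAAtggaatgaatgatatg

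A T was deleted in a run of exactly 3 in 9 of these 10 sequences, and in TES the deleted base was an A. The run stood upstream of the signal in 7 of them (CDCA4, BMP4, CDK1, SPRY2, PAICS, NDUFB3 and IFT25) and downstream in MYL12A, VMA21 and TES. In CDCA4 and IFT25 the run ended at the base just before the signal, so that TTT and ATTAAA were joined.

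MYL12A, a regulatory light chain of myosin, had the most deletions, 2294 of 52883 tags, or 4.34% (95% Wilson interval 4.17 to 4.51). VMA21, an assembly factor of the vacuolar proton pump, had 2270 of 28647 tags (7.92%), and CDCA4, a cell division cycle-associated protein, had 1969 of 20131 (9.78%). BMP4, a secreted ligand of the TGF-β family, had 1595 of 49095 tags (3.25%). The intervals of these 4 percentages did not overlap, so CDCA4 stood highest and BMP4 lowest, while the tags at CDCA4 were the fewest. The mitotic kinase CDK1 had 1553 of 36176 tags (4.29%) and SPRY2, an inhibitor of receptor tyrosine kinase signalling, had 1487 of 28304 (5.25%). PAICS, an enzyme of purine synthesis, had 1262 of 29192 tags (4.32%), and NDUFB3, a subunit of respiratory complex I, had 1195 of 28692 (4.16%). The intervals of MYL12A, CDK1, PAICS and NDUFB3 overlapped. IFT25, a part of the intraflagellar transport machinery, had 1158 of 17176 tags (6.74%) and the focal adhesion protein TES had 1143 of 18670 (6.12%).

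The signal started 11 to 37 nt upstream of the nearest annotated end in MYL12A, VMA21, CDCA4, BMP4, PAICS and IFT25. In CDK1 it started 4 nt past that end, so the hexamer lay beyond it, and in SPRY2 and NDUFB3 it started 5 nt and 6 nt before that end. CDK1 and NDUFB3 had another annotated end 11 nt and 16 nt downstream of the first base of the signal. BMP4 and TES also had AATAAA 10 to 40 nt upstream of their end, outside the 25-nt window. For TES, whose ATTAAA started 55 nt upstream of the end, the sequence at the end was therefore the canonical one.

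The members with the highest deletion percentage among those with at least 100 deletions show the other extreme, which is a high percentage on fewer tags. Capitals and counting are as above.
PDSS2 (chr6:107152568-107152597, minus strand, deleted base 11): aaaaaaaaaaagagATTAAAcaagataatt
PON2 (chr7:95404890-95404919, minus strand, deleted base 9): tacatctttgtttaccATTAAAaagttgga
PSMB1 (chr6:170535124-170535153, minus strand, deleted base 12): atggttttgtttATTAAAagagaaacctga
CHCHD10 (chr22:23765837-23765866, minus strand, deleted base 20): aaatgtgcaATTAAAagtttattttagacc
ITSN2 (chr2:24238936-24238965, minus strand, deleted base 13): gcaagtgtgtttATTAAAagaacacaaact

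PDSS2, which makes the side chain of coenzyme Q, had 104 deletions in 767 tags (13.6%, interval 11.3 to 16.2), and its deleted A lay at the edge of a run of 11 A. PON2, a paraoxonase, had 324 of 2603 tags (12.4%), PSMB1, a subunit of the proteasome core, 819 of 7224 (11.3%), and CHCHD10, a protein of the mitochondrial intermembrane space, 488 of 4592 (10.6%), each with a T deleted in a run of 3. ITSN2, an endocytic scaffold, had 106 of 1008 tags (10.5%), and there the first A of the signal was the deleted base. All 5 intervals overlapped one another, so the order of these 5 sites is not settled by these counts.

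Over all 1727 members the site was covered by a median of 7006 tags (quartiles 2945 and 15914.5, range 163 to 76011) and carried a median of 79 deletions (quartiles 55 and 133, range 32 to 2294). The median deletion percentage was 1.61% (95% order-statistic interval 1.51 to 1.75), with quartiles of 0.608% and 3.23%. With only the site with the most deletions in each gene, taken over all 3 end-proximal classes, 678 members were left and their median was 3.21%. The canonical-signal sites had a median of 7985 tags, 78 deletions and 1.35%, and the sites with neither signal 4975 tags, 66 deletions and 1.83%. The percentage helped to choose all 3 classes, so these medians are descriptions. At the limits of the rule, the highest members were TUBGCP4 (26.6%, 353 tags) and CKAP2 (24.5%, 163 tags), and the nearest sites above the limit were PCNX2 (31.6%, 114 tags) and ZNF226 (36.8%, 87 tags). There were 44 otherwise equal sites at or above 30%, with a median of 21 tags. SAV1 and GNG12 lay 100 nt from their ends, and SLC35F5 and SOD1, at 102 nt and 103 nt, were the nearest sites left out.

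**Figure D1:**
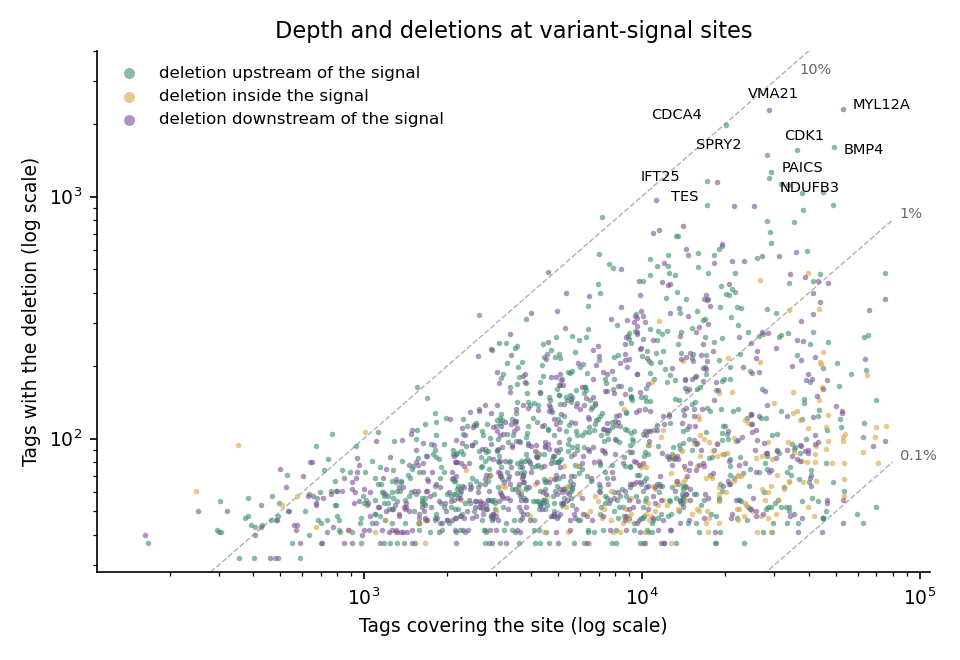
Each point is 1 of the 1727 variant-signal sites, with the pooled tags that cover it on the x axis and the tags with the deletion on the y axis, both on log scales, and dashed lines at 0.1%, 1% and 10% of tags. Sites inside the signal lie mostly at high depth and low percentage (median 17271 tags and 0.469%), and the 10 named sites have at least 1143 deletions.

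The deletions fell on both sides of the hexamer and seldom in it. Counting the whole run of identical bases in which the deletion lay, 879 members (50.9%) had it upstream of ATTAAA, 658 (38.1%) downstream, and 190 (11%, interval 9.61 to 12.6) overlapping the hexamer. Around AATAAA the shares were 43.3% upstream, 35.2% downstream and 21.5% (20.7 to 22.4) inside. Part of this contrast is built into the classes, since the hexamers that define them differ in their letters. With 1 site per gene, the one with the most deletions in its class, the shares inside fell to 4.69% for the variant signal (39 of 831) and 15.4% for the canonical signal (510 of 3321). Both strands gave similar shares, with 11.6% of plus-strand and 10.2% of minus-strand members inside the variant signal.

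Split by letter, the A of ATTAAA that precedes its pair of T was deleted at 53 members (3.07%), whereas the pair of A that precedes the T of AATAAA was deleted at 1260 canonical-signal sites (15.0%). The T of the signal was deleted at 65 members (3.76%) against 157 canonical-signal sites (1.87%). The run of A that closes both hexamers was deleted at 72 members (4.17%) and 395 canonical-signal sites (4.69%), and these intervals overlap. Of these 3 elements the leading A differed most between the classes. The T differed in the other direction with intervals apart (2.96 to 4.77 against 1.60 to 2.18), and only the closing run of A had overlapping intervals. ATTAAA has a single leading A and a pair of T, whereas AATAAA has a pair of leading A and a single T. The shares were not scaled to the number of bases, so they do not show a difference per base.

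Position by position, members were most frequent 1 nt before the signal, with 83 sites (4.81%), and again 11 nt past its first base, with 72 sites (4.17%). The canonical-signal sites were most often listed inside the hexamer instead, with 639 sites (7.59%) at its second base and 413 (4.91%) at its first. The variant class had 40 (2.32%) and 34 (1.97%) at these bases. At the position 1 nt before the signal the canonical class had 4.49%, so the classes differed little there. The count of 0 at the fifth base of both hexamers comes from the listing, because a deletion in a run of A is placed at one end of the run. For the same reason, which A of the leading pair of AATAAA was lost is not known. The split between its first and second base depends on the listing.

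**Figure D2:**
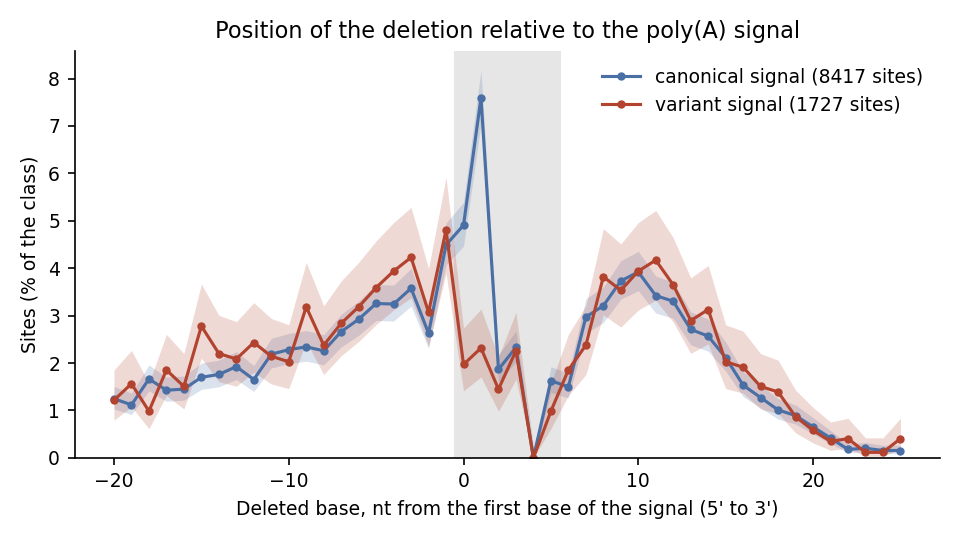
The x axis is the deleted base in nt from the first base of the signal and the y axis the share of sites of each class in percent, with 95% Wilson intervals shaded and the 6 bases of the signal in grey. The variant class has a lobe on each side (4.81% at 1 nt before the signal, 4.17% at 11 nt) and lacks the canonical peak of 7.59% inside the hexamer. Deletions in a run are listed at 1 end of the run, so the height at a single position depends in part on the listing.

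Sites inside the variant signal had deeper coverage and a lower percentage than those beside it. Their median was 0.469% (0.406 to 0.511) of a median of 17271 tags, against 1.81% of 5979 tags upstream and 1.92% of 5837.5 tags downstream, while the median number of deletions was 67, 81 and 80. Inside the canonical signal the median was 0.857% of 11188.5 tags. Depth therefore moved with position in both classes, and its part in the lower percentage was not tested.

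The deleted base was T at 1203 members (69.7%), A at 304 (17.6%), C at 137 (7.93%) and G at 83 (4.81%). In the canonical class it was T at 59.1% and A at 28.6% of sites. Outside the hexamer this gap closed, with T at 73.9% of upstream and 74.2% of downstream members, against 71.8% and 74.3% around AATAAA. Sites with neither signal had T at 74.6%.

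Runs of exactly 3 T held 483 (40.1%) of the 1203 T deletions among members, compared with 38.8% in the canonical class and 43.6% in the class with neither signal. The 51-nt windows of the members held 1068 such runs that could be compared by the base after them. Of those followed by A, 55.9% (51.4 to 60.3; 266 of 476) were the deleted run, of those followed by G 40.2% (35.1 to 45.5; 137 of 341), and of those followed by C 31.9% (26.4 to 37.9; 80 of 251). The base before the run made little difference, with 45.6% after A, 45.9% after C and 43.8% after G. The order A, G, C also held in the canonical class (53.7%, 40.3% and 27.3%), whereas with neither signal G (49.2%) stood near A (46.8%). Windows of neighbouring sites overlap, and a run held by several windows of a class was counted once. Runs of the same gene are still not independent.

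The AUA motif of the study is a 7-nt pattern, which in DNA letters is A, G or T, then A or T, then ATA, then A or T, then A. It was searched on the transcript strand only. AATAAA preceded by a fitting base is a match, and ATTAAA is not. Among members 245 (14.2%, 12.6 to 15.9) had a match in the window, against 758 (23.1%, 21.7 to 24.6) of the sites with neither signal, a higher share than in the variant class by more than counting error. TATAAA and AATATA preceded by a fitting base are matches too, and these hexamers were in 12.3% and 12.5% of windows with neither signal. Their part in this contrast was not tested. The 80.6% in the canonical class follows mostly from the hexamer itself. In BMP4, SPRY2, NDUFB3 and ITSN2, of the 15 sequences printed above, the full window held a match.

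Some members had a rarer hexamer beside ATTAAA. Of 10 such hexamers, each 1 base away from AATAAA, at least 1 was present in 509 of the 1727 windows (29.5%), compared with 1489 of the 3284 windows with neither signal (45.3%). Among the sites with neither signal, AATATA was found in 12.5% of windows, TATAAA in 12.3%, AGTAAA in 6.88%, AATACA in 5.48% and CATAAA in 4.29%. The others searched were AAGAAA (4.23% of windows), AATGAA (3.44%), GATAAA (3.38%), ACTAAA (2.53%) and AATAGA (2.25%).

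The label was then checked against the transcript ends themselves, which the window around the deletion does not see. Searched 10 to 40 nt upstream of the end, 1422 members (82.3%) had only ATTAAA, 71 (4.11%) only AATAAA, 33 (1.91%) both and 201 (11.6%) neither. Most members thus had only ATTAAA at the transcript end too, which is not an independent check of the name.

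The first base of ATTAAA lay a median of 21 nt upstream of the nearest annotated end (quartiles 18 and 25), which are the same values as for AATAAA (21 nt, 18 and 25). It lay 10 to 40 nt upstream in 1414 members (81.9%) and in 85.9% of canonical-signal sites. At 100 members (5.79%) the hexamer ran past the nearest end. Counting any annotated end of the gene, 1521 members (88.1%) had 1 that lay 10 to 40 nt downstream of the first base of ATTAAA. The rule limits the distance of the deletion from the end to 100 nt, which bounds these distances but does not set their median.

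**Figure D3:**
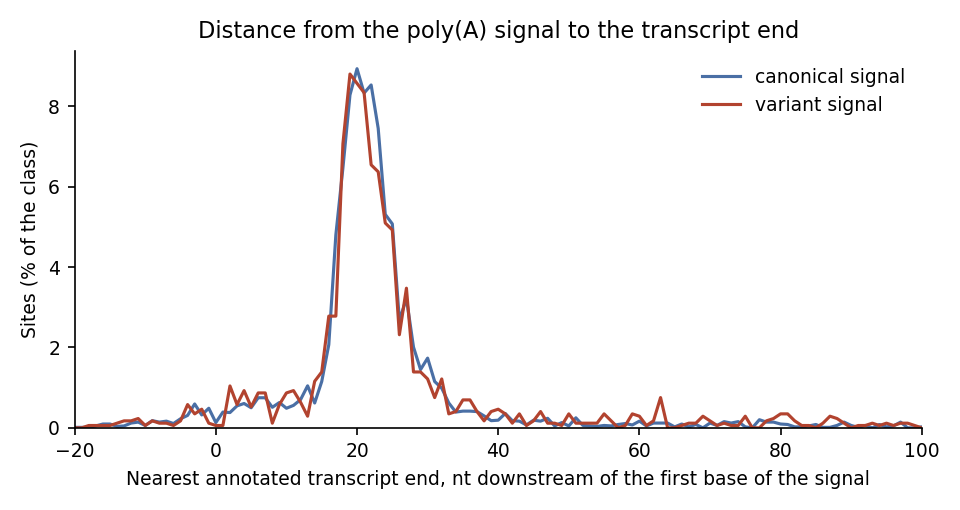
The x axis is the distance in nt from the first base of the signal to the nearest annotated transcript end downstream of the deletion, cropped to between -20 and 100 nt, and the y axis the share of sites of each class in percent. Both curves rise together and share a median of 21 nt, with quartiles of 18 and 25 nt.

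How often annotated ends of each kind held a site was counted from the annotation. Of the 6522 distinct 3′UTR ends of protein-coding genes with only ATTAAA 10 to 40 nt upstream, 1249 (19.2%, 18.2 to 20.1) had an end-proximal site, against 22.0% of ends with AATAAA and 5.39% of ends with neither. A site near several annotated ends was counted at each of them, so neighbouring ends are not independent. Many of these ends belong to transcripts that these cells may not make, and the expression of each end was not measured. With 1 representative end per gene, and only genes with some 3′UTR site, the shares were 56.8% (53.6 to 59.9; 549 of 967) for the variant signal, 64.2% (62.8 to 65.6; 2713 of 4225) for the canonical and 41.9% (39.0 to 44.9; 452 of 1079) for neither. The variant signal was thus between the other classes, below the canonical by more than counting error. It stood at 15.4% of the representative ends of genes with a site and at 14.0% of those of all protein-coding genes.

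UGUA, searched as TGTA on the transcript strand between 100 and 40 nt upstream of the representative end, was present at 315 of the 551 variant-signal ends with a site (57.2%, 53.0 to 61.2) and at 40.5% (38.4 to 42.5) of those without one. For the canonical signal the shares were 49.6% (47.7 to 51.5) with a site and 37.4% without, and over all 19936 ends 38.8%. In each class ends with a site thus had the letters more often, and the variant-signal ends with a site stood above the canonical ones by more than counting error. The ends with a site and neither signal had 52.7% (48.2 to 57.2), which overlaps the variant-signal interval. The expression of the genes was not measured here, and its part in this contrast was not tested. The share of T and G in the 40 nt of genome downstream had a median of 60% at variant-signal ends with and without a site. Ends with at least 7 A among the first 10 nt downstream, where an oligo(dT) primer could start on genomic sequence, were also counted. They were 1 of the 551 variant-signal ends with a site (0.181%, 0.0320 to 1.02) and 0.403% (0.212 to 0.765) of those without one, and these intervals overlap.

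At 213 ends the variant signal had a listed deletion on both sides, and the site with the most deletions on each side was compared. Sides were called from the copy of the signal nearest to each site. At some ends, among them those of CAST, CD44 and MRPL49 and 1 of ITGB1, the compared sites therefore lay beside different copies. The percentage was higher upstream, with intervals that did not overlap, at 90 ends (42.3%), higher downstream at 53 (24.9%), and not separable at 70 (32.9%). Over all 1191 ends with either hexamer and a deletion on both sides, upstream was higher at 36.5% and downstream at 34.5%. At the 978 canonical-signal ends the counts were 345 upstream, 358 downstream and 275 not separable. The median ratio of upstream to downstream percentage was 1.12 for the variant signal (quartiles 0.697 and 2.21) and 0.971 for the canonical (0.484 and 2.10), so the middle of both distributions overlapped widely. The ends were taken from listed sites only, and a side with too few deletions to be listed has no value.

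Single ends leaned far to one side or the other. At the end of SLC38A1, a transporter of glutamine, the upstream deletion was in 2.72% of 37892 tags and the downstream one in 0.139% of 35207. TOMM20, a receptor of the mitochondrial import pore, had 2.33% of 44983 tags upstream and 0.517% of 42134 downstream. PAICS had 4.32% against 0.839%, and IFT25 6.74% against 0.607%. MYL12A leaned the other way, with 0.321% of 51463 tags upstream and 4.34% downstream, as did VMA21 with 0.475% against 7.92%. Depth was similar on both sides in SLC38A1, TOMM20 and MYL12A, so these contrasts are in the deletions and not in the tags.

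**Figure D4:**
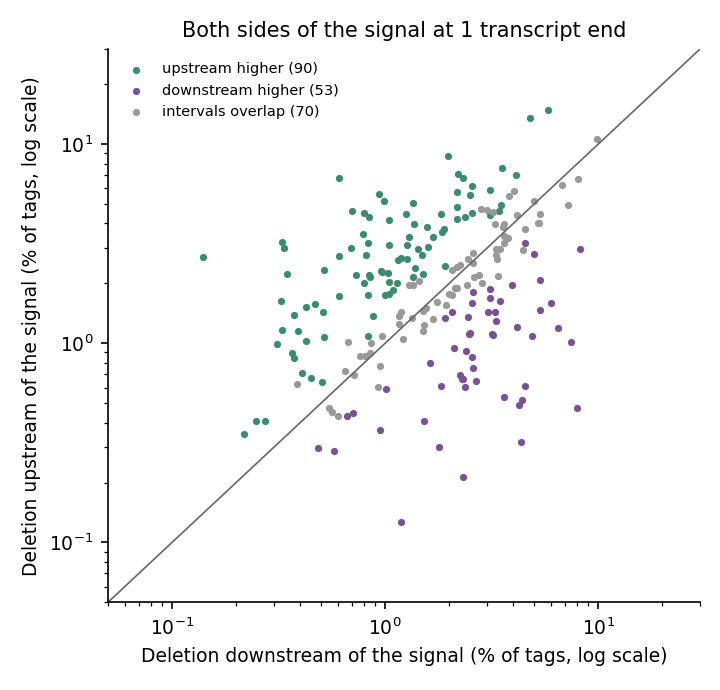
Each point is 1 of the 213 transcript ends with the variant signal and a deletion on both sides, with the percentage of tags downstream of the signal on the x axis and upstream on the y axis, both on log scales, and a line where they are equal. Green points (90) lie above the line and purple points (53) below it with intervals apart, and grey points (70) have overlapping intervals. Sides were called from the copy of the signal nearest to each site.

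Several members often belonged to 1 end. A single member was found in 431 genes, 2 in 199, 3 in 84 and more in 117. CCT5, a subunit of the chaperonin that folds actin and tubulin, had 15 members at 2 ends, with 41 to 1123 deletions and 0.0919% to 3.54% of tags. The prion protein gene PRNP had 14 at 1 end, from 0.139% to 2.79% of 28067 to 42352 tags, and 4 of them deleted a T. In PRNP the T run 17 nt before the signal had 790 deletions, and the next site, 16 nt past its first base, had 305 (0.817%), of 2274 deletions over all 14 members. The integrin subunit ITGB1 had 11 members (0.206% to 1.43%), the hyaluronan receptor CD44 10 (0.0748% to 0.639%) and the mitochondrial protease YME1L1 10 (0.179% to 2.14%). CD44 had the deepest coverage of all members, up to 76011 tags, and sites that deep were listed at percentages that a shallow site could not reach, since the fewest deletions of any member were 32.

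In 172 genes both a variant-signal and a canonical-signal end-proximal site were listed, a number that fell to 82 with 1 representative transcript per gene and to 82 with the hexamers searched 10 to 40 nt upstream of the end. They lay at the same end in 79 genes, at ends at most 100 nt apart in 26, and at ends farther apart in 67. The 5 of these 172 genes with the most deletions at the variant site all belonged to the first and second of these groups. In MYL12A the ends were 16 nt apart, with 4.34% of 52883 tags at the variant site and 6.55% of 9812 at the canonical one. BMP4 had 3.25% of 49095 tags against 0.921% of 28458, and TES 6.12% of 18670 against 3.46% of 18542, each at 1 end. CCT5, with ends 86 nt apart, had 3.54% (3.34 to 3.75) against 3.87% (3.51 to 4.26), which overlap, and SLC38A1 had 2.72% against 3.59% (2.84 to 4.53), which also overlap. In MYL12A and SLC38A1 the AATAAA near the canonical site started more than 40 nt upstream of its end.

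Where the ends were over 100 nt apart, variant and canonical sites each had more tags in about as many genes. Single genes differed widely. An end is named here after the signal near its site, which need not lie 10 to 40 nt upstream of that end. In TMEM59 the canonical site lay too far from its end for that. The median gap was 1090 nt, and the variant-signal end was upstream in 40 genes and downstream in 27. The variant site had more tags than the canonical site in 33 of 67 genes, with a median tag ratio of 0.988 (quartiles 0.356 and 3.29). The deletion percentage was higher at the variant site in 21 genes, higher at the canonical site in 33, and not separable in 13, with medians of 2.60% and 3.18%. With the variant end upstream, its percentage was higher in 10 and lower in 21 of 40 genes, and with the variant end downstream it was higher in 11 and lower in 12 of 27. The same counts were not made for pairs of sites beside the same kind of signal. These splits therefore do not show an effect of the signal.

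The 5 of these 67 genes with the most deletions at the variant site, named after their values were seen, show the spread. ARPC2, a subunit of the Arp2/3 complex, had nearly equal tags at ends 225 nt apart (29243 variant, 29600 canonical), with 2.20% and 3.41% deleted. In SPATS2L the upstream, variant end had 19052 tags and the canonical end, 3727 nt farther on, 1458. In CD44 the downstream, variant end had 75388 tags (0.639%) and the canonical end 35036 (1.39%). NRP1, a co-receptor of semaphorins and VEGF, had 43684 tags at its downstream variant end (1.09%) and 1412 at a canonical end that is upstream of it (2.97%). Only TMEM59 of the 5 had the higher percentage at the variant site (2.33% of 23270 tags against 1.39% of 18765). Tags count RNA bound and recovered at an end, and how much of each transcript form the cells contained was not measured.

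**Figure D5:**
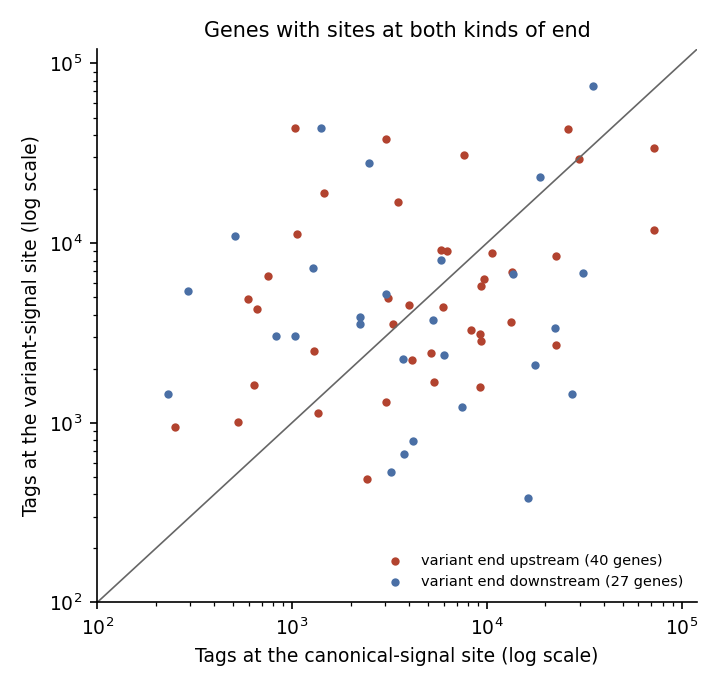
Each point is 1 of the 67 genes with a variant-signal and a canonical-signal site at ends over 100 nt apart, with the tags at the canonical site on the x axis and at the variant site on the y axis, both on log scales, and a line where they are equal. The variant site lies above the line in 33 genes, and both orders of the ends (40 and 27 genes) occur on either side.

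Gene families were counted by symbol, as genes with a variant-signal site among genes with any end-proximal site under the percentage limit, beside 18.1% over all genes (831 of 4583). These lists were chosen with results of these data known. Of the 3′ end processing factors, 1 of 9 had a member, which was CPSF4, the CPSF subunit that contacts the poly(A) signal (7.21% of 1013 tags, interval 5.77 to 8.97). Of the screen genes of the study, chosen by its authors partly on these libraries, 2 of 11 had one. NRP1 is given above, and MOCOS, which activates molybdenum enzymes, had 3.31% of 1237 tags. The only RBMS gene with an end-proximal site had none.

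Integrins, collagens and laminins had the highest share, 6 of 19 genes (31.6%, 15.4 to 54.0), and solute carriers followed with 18 of 72 (25%, 16.4 to 36.1). Both intervals include the share over all genes. The matrix group held ITGB1, COL13A1 (1.51% of 21051 tags), COL4A5, COL8A1, ITGA6 (14.9% of 383 tags) and LAMA5. Among solute carriers, SLC38A1 had the most deletions and the glucose transporter SLC2A1 was next, with 9 members and 597 deletions in 39237 tags (1.52%) at the strongest. Translation factors (3 of 33), cytosolic ribosomal proteins (6 of 52), RAB GTPases (2 of 17) and respiratory chain genes (8 of 55) had shares from 9.09% to 14.5%, and their intervals also include 18.1%. RPL38 had the deepest site of the ribosomal group, 0.410% of 65152 tags. PSMA3 and PSMB1 led the 5 of 29 proteasome genes, with 1112 and 819 deletions. SRSF2, a splicing factor, had the most deletions of the 4 of 24 hnRNP and SR genes, 481 of 17396 tags (2.77%), and HNRNPU the highest percentage (4.73% of 1226 tags). Ubiquitin-conjugating enzymes (3 of 18), ZNF genes (10 of 53) and S100 proteins (1 of 6) had shares between 16.7% and 18.9%.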

How the data were processed

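Both libraries were made from UV-crosslinked cells by immunoprecipitation of the FLAG tag, poly(A) tailing of the bound RNA, oligo(dT) capture and reverse transcription with molecular identifiers (UMIs). Natural poly(A) tails can enter the library by the same oligo(dT) steps. This bears on every value at a transcript end, and its part was not tested. The authors appended UMIs to reads, ran the CLIP Tool Kit on hg38, pooled the replicates and called deletion sites, filtered by false discovery rate and by a fold. The aligner's name is not given in the sources used here. The deposited values are counts per site, tags covering it and tags with the deletion, not normalized. Library totals and counts per replicate were not analysed here, so depth is given per site.

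The deleted base was the centre of each 21-nt interval. Sites were placed on GENCODE release 44, and the distance was taken to the nearest downstream end among transcripts of the gene with an annotated 3′UTR. Where several copies of a hexamer lay in the window, the nearest was used. Deletions in runs are listed at 1 end of the run, so sides were called from the whole run. Intervals are 95% Wilson intervals for shares and order-statistic intervals for medians, and sites of 1 gene are not independent. No test between groups was possible. Members and gene lists were chosen with earlier results of these data known. The text names the 10 sites with the most deletions, the 5 highest percentages with at least 100 deletions, the 5 genes with the most members, the 5 genes with both signals and the most variant-site deletions, the sites at the limits and listed family members. Placement and hexamer search were tested on 400 simulated sites, of which 100% were recovered. Their background held no T, and each site had a single transcript end and at most a single hexamer. Competing copies, several ends and overlapping genes were therefore not tested. Alternatives were minimum deletions, 1 site per gene, other windows, other ends and hexamers searched at the end. Python 3.11.15, numpy 2.4.6, pandas 2.3.3, scipy 1.17.1, pysam 0.24.0 and matplotlib 3.10.9 were used.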

Additional observations from a re-analysis of the deposited data

How the results depend on the processing

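Every result is a description of 1 pooled list, so the alternatives show how far a value moved. Apart from the share inside the hexamer, they were run for the variant signal alone and not for the class it was compared with. Of the recomputed values 22 moved and 72 moved less, which for shares and medians means within their counting interval and for numbers within 1.5 times. The 72 include all values at a minimum of 20 deletions. That setting could change none of them, since no end-proximal site had fewer than 32 deletions. Among the latter, the number of members was 1434 with at least 50 deletions and 1245 with 1 representative transcript per gene, and the number of genes with both signals lay between 122 (an end within 50 nt) and 196 (the ends of all transcripts). With 1 site per gene over all classes, 678 members were left (14.8% of end-proximal sites), with a median percentage of 3.21%, T deleted at 83.2% and the deletion downstream of the signal at 41.7%. With 20 nt on each side of the deletion the share of end-proximal sites was 12.3% and that with an AUA match 11.2%. With 40 nt these were 14.1% and 21.5%, the median offset was -2 nt and the downstream share 34.8%. With hexamers searched 10 to 40 nt upstream of the end, the class share was 13.7%, the median offset -3 nt, the downstream share 33.3%, the AUA share 18.4%, and 82 genes had both signals. An end within 50 nt gave a class share of 13.5%. With 1 representative transcript per gene, 82 genes had both signals and the signal lay 23 nt from the end. The share of annotated variant-signal ends with a site was 16.3% with at least 50 deletions, 18.2% within 50 nt and 17.2% with the ends of all transcripts, an alternative chosen after seeing the data. Under the 7 settings compared for both signals, the share inside the hexamer ranged from 4.13% to 11.9% for the variant and from 14.9% to 23.4% for the canonical signal.

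The share of annotated ends has no value for 1 site per gene, the other windows, the other end of a run or hexamers at the end, and the number of genes with both signals has none for 1 site per gene. No paired analysis was possible because the deposited list pools the replicates. For the same reason, leaving out a replicate was not run. The list has no value for sites with fewer deletions than its filters need, and weak sites at low depth are therefore missing from every count.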
